A study of Homo sapiens with 12 samples.

Results

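Transcripts annotated as substrates of nonsense-mediated decay were counted among the polysome-bound RNAs of 3 triple-negative breast cancer cell lines. A transcript was taken as a member when GENCODE release 44 gave its type as nonsense_mediated_decay, when its mean over the 12 libraries was at least 20 counts and when its gene was not an SR protein gene (symbol starting with SRSF). These rules gave 3802 transcripts of 2565 genes, out of 18748 rows of the table with that annotation and 201932 rows in all. Of the other annotated rows, 14934 had a mean below 20 counts and 12 belonged to 8 SRSF genes. The members were thus selected on their mean count over all libraries and on no difference between groups, so the mean counts are a description and carry no test. SETD5-226 lay just inside the limit with a mean of 20.01 counts, and DECR1-203 lay just outside with 19.998. All 3802 members passed the filter for the test of levels, and 3740 were tested for their share of their gene.

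The study lowered or raised TRMT112, a small protein that binds and stabilises several methyltransferases of tRNA, rRNA and proteins, and sequenced the RNA of pooled polysome fractions from sucrose gradients. MDA-MB-231 and SUM159 cells carried a TRMT112 shRNA from a lentiviral GIPZ vector (KD) or its non-silencing control (EV CTRL) under puromycin. BT549 cells carried a TRMT112 open reading frame in an expression plasmid (OE) or the empty plasmid (EV CTRL) under G418. Each of the 6 groups had 2 libraries, all cells were treated with cycloheximide before lysis, and the labels name no other treatment. The labels do not say whether the 2 libraries of a group came from separate cultures, so p-values measure only the spread between these samples. No total RNA libraries were used here, so the amount of an mRNA in the cell and its loading with ribosomes cannot be told apart. Likewise, in bulk samples fewer cells of a type and less RNA per cell cannot be told apart.

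Library totals were between 22954226 and 27434677 counts. Within each group the 2 libraries differed beyond counting noise over genes with at least 100 summed counts (chi-square per degree of freedom between 2.08 and 3.21), so none was treated as a repeat of another. TRMT112 itself had 4146 and 3939 normalized counts in MDA-MB-231 EV and 1764 and 1683 in KD. The SUM159 values were 6330 and 6564 for EV, then 3906 and 3698 for KD. The BT549 values were 3078 and 3085 for EV, then 4289 and 4319 for OE. The direction was that of the labels in all 3 lines. The progesterone receptor gene PGR was at 0 to 0.372 CPM (counts scaled to the library total), the receptor gene ERBB2 at 60.1 to 128 and the mesenchymal marker VIM at 640 to 2010. No other receptor of the triple-negative definition was analysed here.

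Nonsense-mediated decay (NMD) removes mRNAs whose reading frame ends far ahead of the last exon junction. An exon junction complex left on the mRNA downstream of a terminating ribosome recruits the helicase UPF1, which is phosphorylated by SMG1 and then calls in SMG5, SMG6 and other factors for cleavage, deadenylation and decapping. Because the stop codon has to be read by a ribosome, such transcripts are expected to meet ribosomes before they are destroyed. Alternative exons and introns that bring in an early stop are a usual way to tune the level of RNA-binding proteins.

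The annotated structure of the members followed that definition. Members were selected by an annotated type that itself describes such a stop, so this describes the selection and is not a test. In 3797 of the 3801 members with an annotated stop (99.9%), the stop codon lay more than 50 bases ahead of the last exon junction. The same held for 153 of the 28087 protein_coding transcripts with an annotated stop and a mean of at least 20 counts (0.545%). The median distance from stop to last junction was 607 bases (quartiles 242 and 1324). The median reading frame was 418 bases long, against 1293 in the protein_coding transcripts. The median transcript lengths were closer, at 2395.5 and 2688 bases.

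The stop codon arose in several ways. In 2133 members it lay in an exon that coding transcripts of the gene also use, but in a place where none of them stops. In 1080 members it lay in sequence that no coding transcript of the gene contains. In 487 it was the stop of a coding transcript, and in all of these the last exon junction lay more than 50 bases behind it. The remaining members were 101 in genes with no protein_coding transcript and 1 with no stop annotated. The stop was TGA in 58.7%, TAA in 21.5% and TAG in 19.8% of the members, and in 50.2%, 28.6% and 21.2% of the protein_coding transcripts.

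Printed here are the ends of the reading frames of the members on which the results turn, 60 bases each. They run 5′ to 3′ along the mRNA from GENCODE 44 on GRCh38, with the annotated stop codon in capitals. The first 4 are among the most abundant members and the next 5 are examples of members called by their share of the gene, described with the results of that test.
PPIA-202: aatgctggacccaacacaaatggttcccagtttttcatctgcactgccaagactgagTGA
SOD2-215: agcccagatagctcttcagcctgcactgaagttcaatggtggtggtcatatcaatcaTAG
HNRNPA1-205: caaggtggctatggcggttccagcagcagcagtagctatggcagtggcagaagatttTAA
TPM3-219: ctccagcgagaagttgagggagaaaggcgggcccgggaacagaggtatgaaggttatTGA
ACIN1-206: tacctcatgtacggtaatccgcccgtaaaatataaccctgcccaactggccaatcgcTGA
LARS1-222: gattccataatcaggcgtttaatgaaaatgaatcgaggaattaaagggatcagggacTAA
TOP3A-214: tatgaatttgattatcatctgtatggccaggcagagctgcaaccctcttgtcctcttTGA
CCNDBP1-204: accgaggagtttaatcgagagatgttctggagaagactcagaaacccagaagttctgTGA
GPATCH8-205: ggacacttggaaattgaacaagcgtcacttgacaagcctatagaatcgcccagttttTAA

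The stop codon of HNRNPA1-205 (chr12:54284311-54284313, plus strand) is that of a coding transcript, with 2 junctions behind it and the last of them 75 bases away. The stop codon of PPIA-202 (chr7, plus strand) is divided by an intron, with its first base at 44799873 and its last at 44800424, the first base of an exon of 120 bases. SOD2-215 stops at chr6:159688173-159688175 and TPM3-219 at chr1:154173184-154173186, both on the minus strand and both in exons that coding transcripts share. ACIN1-206, which has 1049 bases found in no other transcript of the gene, stops at chr14:23068612-23068614 (minus strand) in an exon of 1358 bases. LARS1-222 stops at chr5:146119061-146119063 (minus strand) in an exon of 66 bases, all of them its own. GPATCH8-205 stops at chr17:44467103-44467105 (minus strand) in an exon of 18 bases that no coding transcript has. CCNDBP1-204 (chr15:43189216-43189218, plus strand) and TOP3A-214 (chr17:18306937-18306939, minus strand) stop in exons that coding transcripts share, with 7 and 15 junctions behind the stop.

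How well a member could be counted depended on its overlap with other transcripts. Of the 3802 members, 2471 (65.0%) had no base of their own within their gene, and 1155 had neither a base nor a junction of their own. Their counts are therefore estimates divided among transcripts that share reads. The 2 libraries of a group differed by a median of 0.417 to 0.482 on the log2 scale per member. For members with a base of their own the median was 0.392 to 0.455, for protein_coding transcripts 0.218 to 0.242, and for the summed counts of the members' genes 0.0538 to 0.0727. PPIA, HNRNPA1 and ribosomal protein genes have processed pseudogenes, MAGOH and MAGOHB are near copies, and HLA genes differ between people, so their values are uncertain.

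Most members were rare and a few were abundant. Their mean counts ran up to 21103 with a median of 60.8, 1598 members had a mean below 50 and 99 had a mean of at least 1000. The 6 most abundant held 11.0% of all member counts and the top 100 held 38.9%. A member held a median of 6.24% of the counts of its gene (quartiles 2.36% and 15.8%). In 175 members the share was 50% or more, and 83 of these were in genes with no protein_coding transcript. HNRNPA2B1 had the most members, 16. A mean of at least 20 counts in every group was met by 1922 members, and 399 were under 20 in all but 1 line. Without the 2 libraries of any 1 group, 97 to 151 members would have a mean under 20 (2.55% to 3.97%).

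The first question was whether NMD transcripts took a different part of the polysome libraries when TRMT112 was changed. They held about 3% of the counts in every library. In MDA-MB-231 the members took 3.02% and 3.06% of the EV libraries and 2.97% and 2.93% of the KD libraries. In SUM159 they took 3.30% and 3.36% in EV and 2.96% and 2.97% in KD. In BT549 they took 3.18% and 3.20% in EV and 3.03% and 2.97% in OE. The perturbed libraries lay below the EV libraries in each line with no overlap, and the 6 perturbed libraries of the 3 lines lay closer to one another than the 6 EV libraries did.

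The group means were 3.04% ± 0.0312 (SD, n = 2) and 2.95% ± 0.0286 in MDA-MB-231, 3.33% ± 0.0442 and 2.96% ± 0.00750 in SUM159, and 3.19% ± 0.0183 and 3.00% ± 0.0413 in BT549. The differences were -0.0878, -0.368 and -0.193 percentage points, each with an exact two-sided permutation p of 0.333, the smallest that 2 against 2 libraries allow. Knockdown and overexpression gave differences of the same sign. With the libraries of each line ordered by TRMT112, the mean difference of lower minus higher TRMT112 over the 3 lines was -0.0876 percentage points (exact permutation p = 0.306 over 216 arrangements, smallest possible 0.00926). A dependence of the summed share on the TRMT112 level was therefore not detected.

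The same 3-line test was run on 17 shares in all, which overlap. Members whose stop is that of a coding transcript took 0.610% of the library in MDA-MB-231 EV and 0.601% in KD, 0.689% and 0.585% in SUM159, and 0.606% and 0.638% in BT549 EV and OE. Members whose stop lies in sequence absent from coding transcripts took 0.746% and 0.738%, 0.787% and 0.759%, and 0.716% and 0.731%. Both were lower with lower TRMT112 in each line without overlap, by means of -0.0477 and -0.0168 percentage points (exact permutation p = 0.00926 each, the smallest possible, and 0.0525 after Benjamini-Hochberg adjustment over the 17). The protein_coding transcripts were higher, by 0.351 points, with the same p-values. Members whose stop lies elsewhere in a coding exon gave -0.0264 points (exact permutation p = 0.602). After adjustment the 17 p-values ran from 0.0525 to 0.926.

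**Figure D1:**
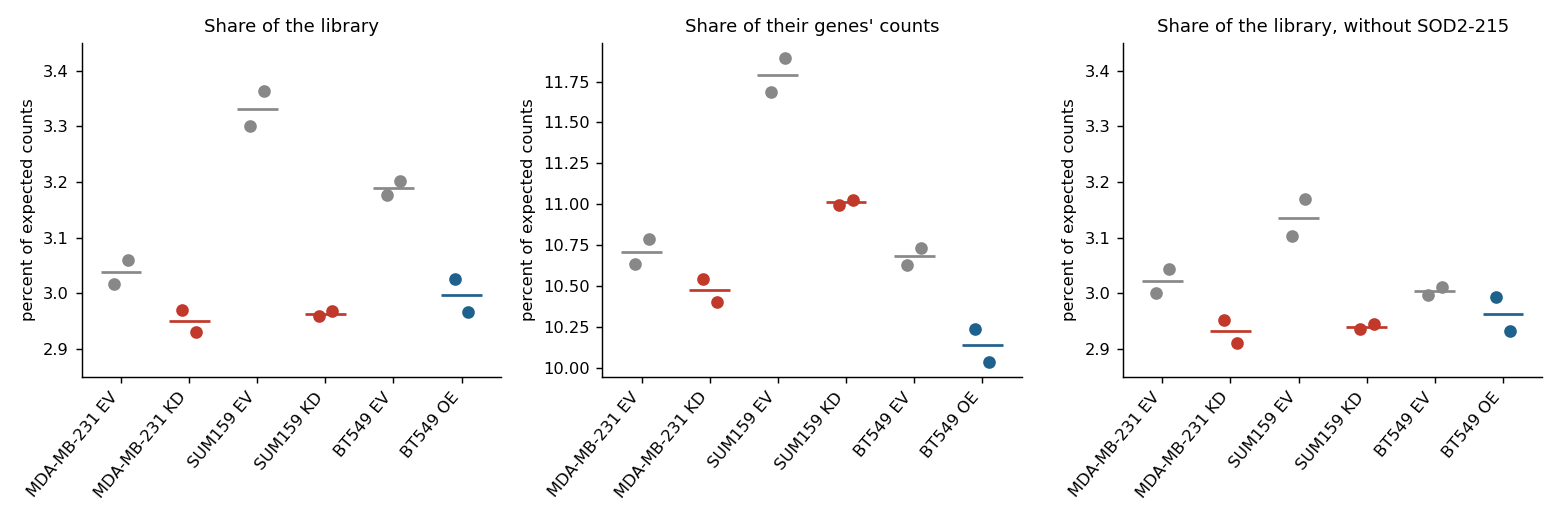
NMD members as a percentage of all counts of a library, of the counts of their genes, and of the library without SOD2-215. Points are the 12 libraries and bars are group means. The vertical axes do not start at 0; perturbed libraries lay below EV in each line, with differences of -0.0878, -0.368 and -0.193 points in the first panel and of -0.0910, -0.196 and -0.0419 points without SOD2-215.

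The members were next set against all counts of their own genes. They held 10.6% and 10.8% of the counts of their 2565 genes in MDA-MB-231 EV and 10.5% and 10.4% in KD. They held 11.7% and 11.9% in SUM159 EV against 10.99% and 11.0% in KD, and 10.6% and 10.7% in BT549 EV against 10.2% and 10.04% in OE. The differences of the means were -0.237, -0.778 and -0.545 percentage points (exact permutation p = 0.333 each, n = 2 against 2; 0.426 over the 3 lines). The genes themselves held 28.4% and 28.2% of the library in MDA-MB-231 EV and KD, 28.3% and 26.9% in SUM159, and 29.9% and 29.6% in BT549.

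By group means, the direction in SUM159 was not the same when each gene counted once. The median over genes of the members' share of the gene was 10.3% in MDA-MB-231 EV and 10.1% in KD, 10.1% in SUM159 EV and 10.7% in KD, and 9.60% in BT549 EV and 8.95% in OE. It was higher in KD than in EV in SUM159, where the summed share was lower. Retained-intron transcripts, the other large class that is not protein_coding, held 1.82% and 1.75% of the library in MDA-MB-231 EV and KD, 1.71% and 1.77% in SUM159, and 1.48% and 1.78% in BT549. In SUM159 and BT549 their difference had the opposite sign to that of the NMD members.

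The change in the library share was divided, gene by gene, into a part from the abundance of the genes and a part from the members' share within each gene. This division was chosen after the data were seen. The abundance part was -0.0944 percentage points in MDA-MB-231 (-0.107 to -0.0810 over the 4 pairs of libraries), -0.378 in SUM159 (-0.396 to -0.360) and -0.185 in BT549 (-0.202 to -0.166). The within-gene part was 0.00659 (-0.0231 to 0.0355), 0.0103 (-0.0336 to 0.0546) and -0.00786 (-0.0480 to 0.0294), so it lay on both sides of 0 between library pairs. The lower library share thus lay in the abundance part, and a change within genes was not detectable in the sum.

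**Figure D2:**
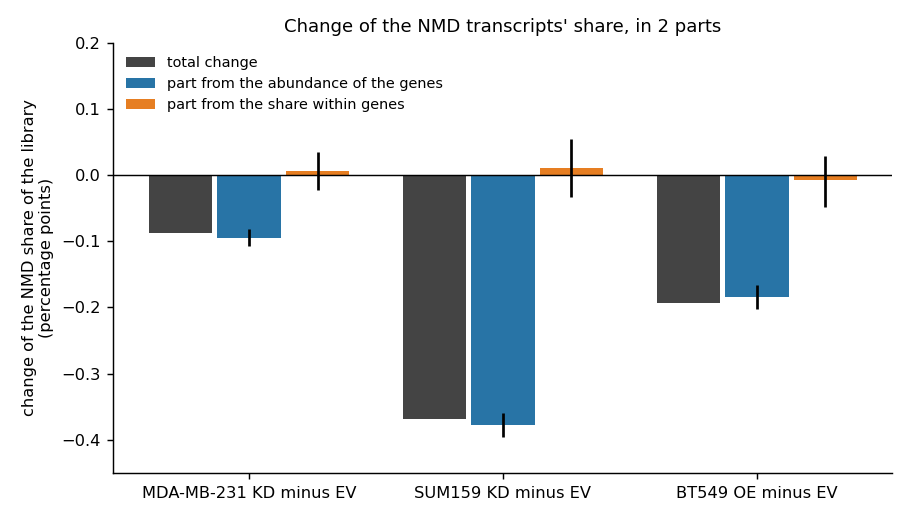
Change in the NMD share of the library between groups (percentage points), with its parts from gene abundance and from the share within genes. Bars are from group means, and lines run from the lowest to the highest of 4 pairs of libraries. The abundance part was -0.0944, -0.378 and -0.185 points and the within-gene part crossed 0 in each line.

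A few genes carried most of it. SOD2, which encodes the mitochondrial manganese superoxide dismutase, gave -0.172 of the -0.368 points in SUM159 and -0.151 of the -0.193 points in BT549. In SUM159 HNRNPA2B1, an RNA-binding protein of the hnRNP family, gave -0.0752 and HNRNPA1 -0.0294. In BT549 CTSB, the lysosomal protease cathepsin B, gave -0.131, and FSTL1, a secreted follistatin-like glycoprotein, gave 0.0527 in the other direction. In MDA-MB-231 no gene was as large, with HNRNPA1 at -0.0119 and PPIA, the peptidyl-prolyl isomerase cyclophilin A, at 0.0228. Without SOD2-215 the library shares still did not overlap between groups, with differences of -0.0910, -0.196 and -0.0419 percentage points.

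SOD2-215 had levels that differed widely between groups. It has no base of its own, so its counts are estimates divided among transcripts that share reads. It held 0.196% ± 0.00270 (SD, n = 2) of the SUM159 EV libraries. Its level was 45664 and 44490.0 normalized counts there and 5331 and 5733 in KD. In BT549 it had 47229 and 50625 in EV and 8573 and 9170.0 in OE, and in MDA-MB-231 3408 and 3468 in EV and 4357 and 4456 in KD. It was lower in the perturbed libraries of SUM159 and BT549 and higher in those of MDA-MB-231, without overlap. The log2 changes of level were -3.03 ± 0.05 (SE; edgeR adjusted p = 2.55e-10), -2.46 ± 0.05 (edgeR adjusted p = 1.48e-10) and 0.36 ± 0.04 (edgeR adjusted p = 0.00161), next to -2.71, -2.83 and 0.38 for the whole SOD2 gene. Its share of the gene was 68.3% and 66.5% in SUM159 EV, 52.9% and 56.2% in KD, 49.0% and 50.7% in BT549 EV, and 63.9% and 64.3% in OE. Among these the BT549 share passed the test (0.36 ± 0.09 on the log2 scale, edgeR adjusted p = 0.0238), but not when any of the 4 BT549 libraries was left out (edgeR adjusted p 0.215 to 0.353), and limma gave the opposite sign.

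Other abundant members held nearly the same part of their gene in every library. TPM3-219, from the tropomyosin gene TPM3, held 27.7% to 29.5% over the 12 libraries, and PPIA-202 held 34.5% to 38.1%. HNRNPA1-205 held 34.1% to 39.8% and FSTL1-211 27.7% to 33.8%. Their levels moved with their genes in each line. FSTL1-211 rose by 0.56 ± 0.04 (edgeR adjusted p = 5.68e-05) in MDA-MB-231 KD, 0.81 ± 0.04 (edgeR adjusted p = 5.36e-07) in SUM159 KD and 1.31 ± 0.04 (edgeR adjusted p = 6.75e-09) in BT549 OE, beside 0.48, 0.89 and 1.34 for the gene. HNRNPA1-205 changed by -0.32, -0.62 and 0.66 on the log2 scale, with -0.38, -0.62 and 0.71 for the gene. None of these 4 members was called by its share in any line. PPIA-202 and HNRNPA1-205 have no base of their own and TPM3-219 has 17. Their shares are therefore estimates divided among transcripts that share reads, and a steady share may reflect that division.

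Cell lines differed widely for some members. RPL13-210, from the gene of the large-subunit ribosomal protein L13, held 10.1% to 12.1% of its gene in the 4 SUM159 libraries and 1.94% to 2.92% in the other 8. UPP1-202, from the uridine phosphorylase gene, held 46.0% to 60.5% in MDA-MB-231 and SUM159 and 16.4% to 22.4% in BT549. ALDH3A2-233, from a fatty aldehyde dehydrogenase gene, held 0.896% to 14.2% in SUM159 and 30.4% to 37.7% elsewhere. It also differed between conditions, as its share was called higher in SUM159 KD. The change was 2.03 on the log2 scale, and 1.15 to 3.51 without 1 library. The call was lost without SUM159 EV replicate 2 (1.31) and without SUM159 KD replicate 2 (1.15). The ranges did not overlap between these lines. BT549 also differs from the KD lines in vector and selection, while MDA-MB-231 and SUM159 share both.

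Across the 99 members with a mean of at least 1000 counts, the highest library's share of the gene was a median of 1.48 times the lowest. A share cannot pass 100%, and 2 of these members held over 99% of their gene in every library, so the ratio is bounded for members that hold most of their gene. Over the 80 members with a mean share under 50% the median ratio was 1.59. Over all 99 the ratio was under 1.25 for 24 members, under 1.5 for 54 and over 3 for 10.

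**Figure D3:**
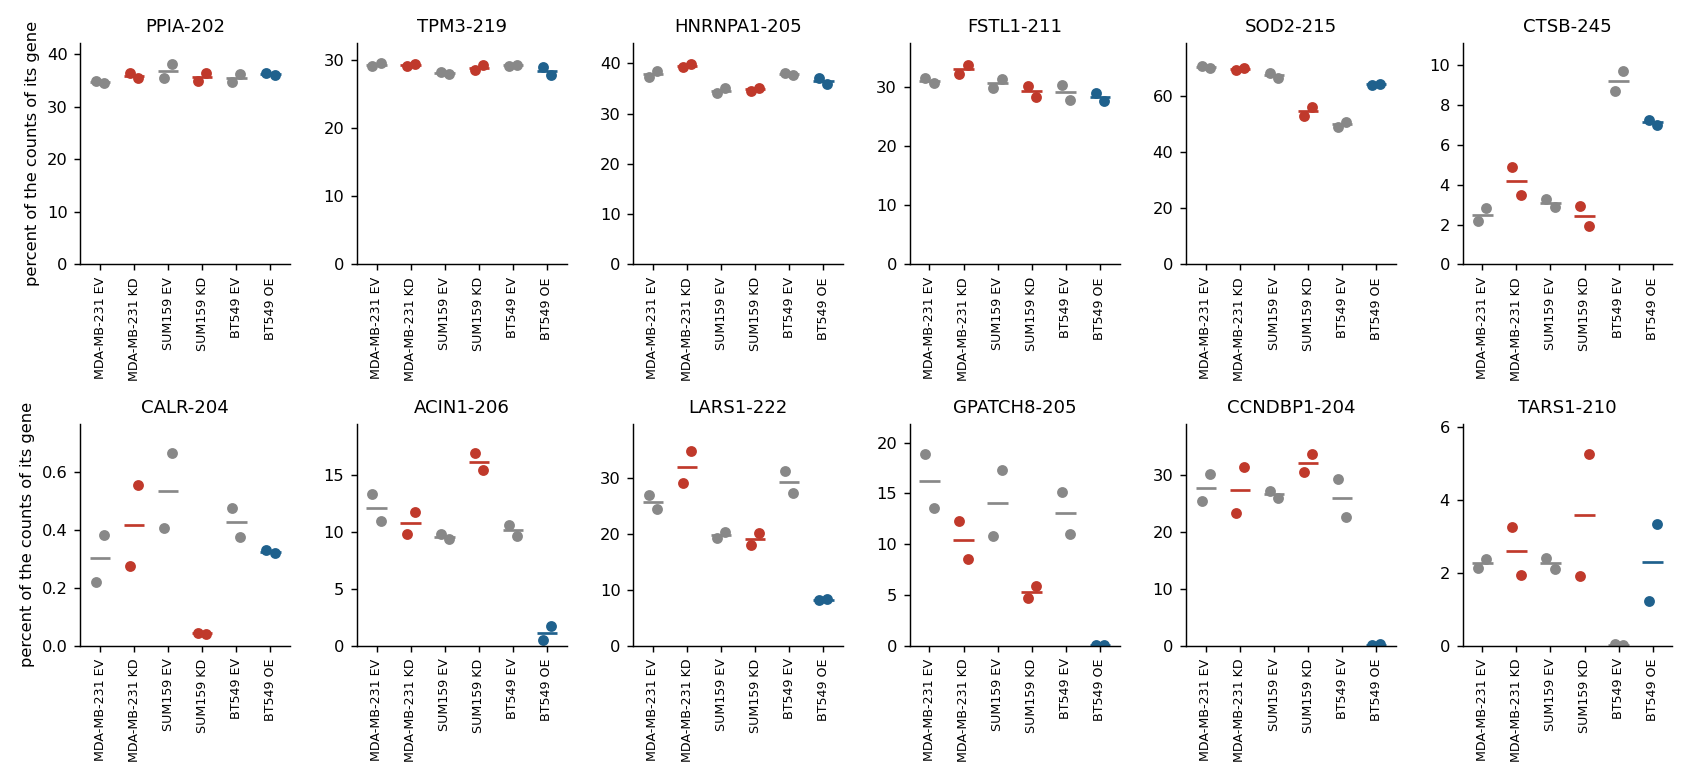
Share of the gene's counts held by named NMD transcripts in each of the 12 libraries, in percent. TPM3-219 stayed between 27.7% and 29.5%, SOD2-215 between 49.0% and 70.7%.

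Single members were then compared by level between the perturbed and EV libraries of each line. In MDA-MB-231 KD, 45 members rose and 25 fell at an adjusted p under 0.05 (edgeR quasi-likelihood test, Benjamini-Hochberg over all 66844 transcripts tested), or 1.18% and 0.658% of members beside 2.33% and 1.17% of all transcripts. With libraries scaled by their totals only, 31 rose and 33 fell in this line. In SUM159 KD, 132 rose and 194 fell (3.47% and 5.10%, beside 5.65% and 6.88%). In BT549 OE, 306 rose and 382 fell (8.05% and 10.0%, beside 10.5% and 10.9%). The share of members called was below that of all transcripts in each line and direction. Members also differed more between the libraries of a group than protein_coding transcripts did. Whether members respond less was not tested.

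Most of these calls went with the gene. When counts were summed to genes, 21.1% of genes rose and 16.5% fell in MDA-MB-231 KD, 28.6% and 31.4% in SUM159 KD, and 35.5% and 34.9% in BT549 OE. Of the members called by level, the gene was called in the same direction for 56 of 70 in MDA-MB-231, 304 of 326 in SUM159 and 602 of 688 in BT549. These are 80.0%, 93.3% and 87.5% of the members called, beside 92.8%, 95.7% and 93.3% of all transcripts called by level. The gene was called in the opposite direction for 6, 10 and 43.

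**Figure D4:**
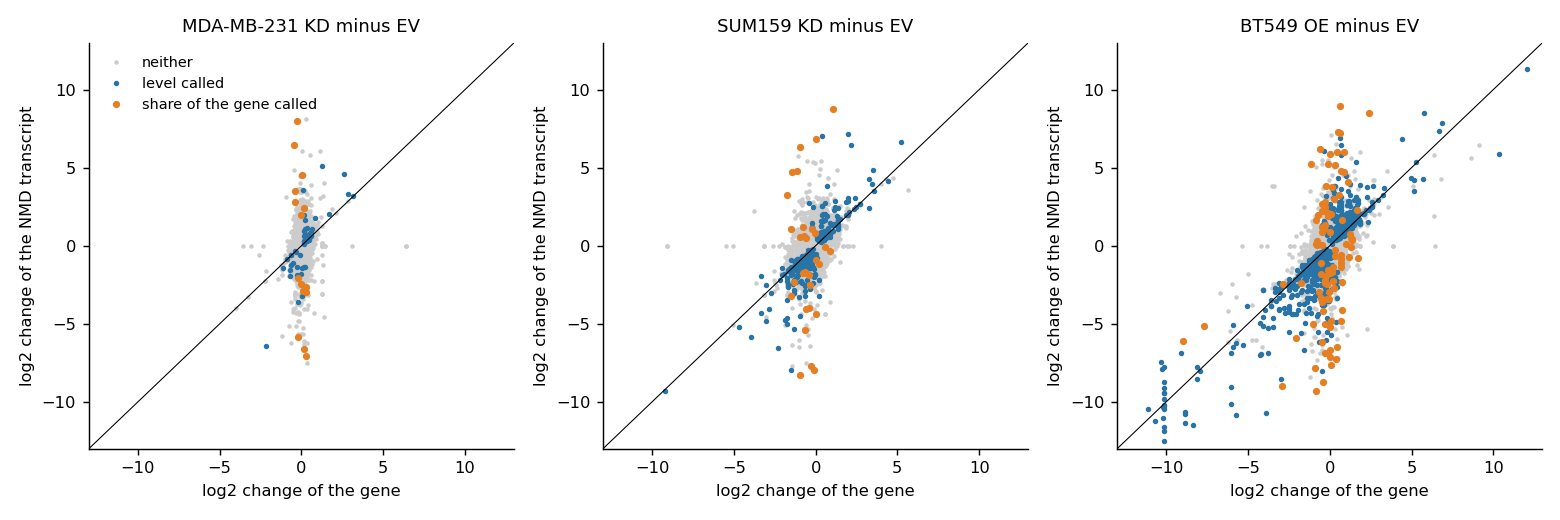
Log2 change of each NMD transcript's level against the log2 change of its gene, one panel per line, with members called by level in blue and by their share of the gene in orange, and a line of equal change. The gene was called in the same direction for 56, 304 and 602 members called by level in MDA-MB-231, SUM159 and BT549; 15, 30 and 96 members were called by share, a test of departure from the rest of the gene.

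The test of the share of the gene compares a transcript with the rest of its gene and so sets aside the gene's own change. In MDA-MB-231 KD, 7 members rose and 8 fell in share (0.187% and 0.214% of the members tested, beside 0.107% and 0.107% of all 59551 transcripts tested). In SUM159 KD, 13 rose and 17 fell (0.348% and 0.455%, beside 0.326% and 0.274%). In BT549 OE, 43 rose and 53 fell (1.15% and 1.42%, beside 1.01% and 1.04%). With limma diffSplice 13 rose and 6 fell in MDA-MB-231, 21 and 21 in SUM159, and 60 and 90 in BT549. Of the members called, 9 of 15, 23 of 30 and 69 of 96 had no base of their own.

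In both KD lines, 13 of the 3802 members rose and 5 fell in level, beside 0.887% and 0.411% of all transcripts (45 and 32 at an unadjusted p under 0.05, beside 2.27% and 1.5%). By share 0 members rose and 0 fell in both (edgeR), beside 0.00504% of all transcripts higher and 0 lower. At an unadjusted p under 0.05 in both lines, edgeR gave 13 higher and 6 lower in share of 3740 members, beside 0.321% and 0.193% of all transcripts, and limma gave 0 and 0 after adjustment. The KD effect itself was compared between the lines by an interaction contrast. By level it was higher in MDA-MB-231 for 115 members and lower for 79 (3.02% and 2.08%, beside 5.08% and 3.38% of all transcripts). By share it was higher for 10 and lower for 6 (0.267% and 0.160%, beside 0.176% and 0.215%).

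Most of the named changes of share were sensitive to single libraries. Of the 31 changes of share that the naming rule gave, 6 passed the test under every alternative and 24 were lost when at least 1 library was left out. The 6 were CALR-204 in SUM159 and ACIN1-206, ATP2B4-206, TARS1-210, CCNDBP1-204 and GPATCH8-205 in BT549. They are described first.

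CALR encodes calreticulin, a chaperone of the endoplasmic reticulum. CALR-204 held 0.406% and 0.664% of the gene in SUM159 EV and 0.0441% and 0.0399% in KD. Its level was 78.5 and 127 normalized counts in EV and 6.94 and 5.94 in KD. The KD libraries lay far below EV, while in the other lines the share was 0.221% to 0.554%. The share fell by 3.58 ± 0.52 on the log2 scale (edgeR adjusted p = 2.49e-05) while the gene changed by -0.38.

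ACIN1 encodes acinus, a protein that binds the exon junction complex and acts in splicing. ACIN1-206, with 1049 bases of its own, held 10.6% and 9.64% of the gene in BT549 EV and 0.513% and 1.68% in OE. In the 8 libraries of the other lines it held 9.33% to 16.9%. The OE libraries were thus the lowest of the 12. Its share fell by 3.22 ± 0.49 (edgeR adjusted p = 4.15e-06) and its level by 3.41 ± 0.39 (edgeR adjusted p = 0.000103), and the gene changed by -0.19.

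GPATCH8 encodes a G-patch protein with a role in RNA splicing, and CCNDBP1 encodes a cyclin D1-binding protein. GPATCH8-205 held 15.1% and 11.0% of its gene in BT549 EV and 0.0742% and 0.0163% in OE, and CCNDBP1-204 held 29.3% and 22.6% against 0.138% and 0.229%. Their levels in OE were under 3 counts, so they were at least 25.9-fold and at least 9.23-fold lower (against a floor of 3 counts per library). The edgeR adjusted p of the share was 2.57e-05 for GPATCH8-205 and 4.34e-05 for CCNDBP1-204. Neither member has a base of its own, so these counts are estimates divided among transcripts that share reads. In the other lines CCNDBP1-204 held 23.3% to 33.7%, at the level of BT549 EV. GPATCH8-205 held 4.71% and 5.86% in SUM159 KD and 8.57% to 18.9% in the remaining libraries.

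Other members rose within their genes in BT549 OE. ATP2B4-206, from a plasma membrane calcium pump gene, held 0.0726% and 0.173% in EV and 8.47% and 12.5% in OE. The SUM159 libraries held 4.30% to 10.3%. The share rose by 6.36 ± 1.01 (edgeR adjusted p = 0.000371) while the gene changed by -1.12. TARS1-210, from the threonyl-tRNA synthetase gene, held 0.0451% and 0.00996% in EV and 1.24% and 3.34% in OE, and 1.90% to 5.27% in the other lines. At under 3 counts in EV it was at least 12.9-fold higher in OE (edgeR adjusted p of the share = 1.55e-05). For TARS1-210 the BT549 EV libraries were the lowest of the 12, while ATP2B4-206 was also low in MDA-MB-231 (0.000234% to 3.11%).

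LARS1-222 was lost only with limma (adjusted p = 0.313). LARS1 is the leucyl-tRNA synthetase, and the member's 66-base exon is its own. It held 31.3% and 27.5% of the gene in BT549 EV and 8.16% and 8.36% in OE, and 18.0% to 34.8% elsewhere. Its share fell by 1.83 ± 0.30 (edgeR adjusted p = 1.55e-05) while the gene rose by 0.70 ± 0.07 (edgeR adjusted p = 4.22e-09). TOP3A-214, from the topoisomerase III alpha gene, has no base of its own. It held 16.4% and 11.0% in SUM159 EV and 0.416% and 1.99% in KD. Its share fell by 3.40 ± 0.56 (edgeR adjusted p = 0.000333), with an adjusted p of 0.0520 when SUM159 KD replicate 1 was left out and 0.0975 when the line was fitted alone.

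In MDA-MB-231 each of the 8 changes of share that met the naming rule was lost when at least 2 different libraries were left out in turn. NASP-206, from a histone chaperone gene, held 0.199% and 0.0860% in EV and 2.15% and 2.43% in KD (3.91 ± 0.74, edgeR adjusted p = 0.00464), with an adjusted p of 0.128 without EV replicate 1 and 0.183 without EV replicate 2. EIF2A-211, from a gene of a non-canonical initiation factor, held 1.68% and 4.88% against 14.1% and 12.5% (2.02 ± 0.49, edgeR adjusted p = 0.0488), with adjusted p-values of 0.795, 0.379 and 0.213 without EV replicate 1, KD replicate 1 and KD replicate 2. The groups did not overlap, but these calls rest on the full set of libraries. BZW2-208, FAM234A-218 and EMD-203 were lower and HNRNPDL-203 and SYNE2-207 higher in KD, with adjusted p-values from 0.0540 to 1 in the fits without 1 library that lost the call.

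Members that are estimated without a base of their own were also tested after transcripts of a gene were summed by class, an alternative added after the data were seen. NMD transcripts of a gene together rose in share for 4 genes and fell for 10 of 2481 in MDA-MB-231 (0.564%, beside 0.191% of all classes). They rose for 28 and fell for 26 in SUM159 (2.18%, beside 0.955%) and rose for 65 and fell for 79 in BT549 (5.80%, beside 2.61%). The shares called were higher than for all classes in each line, with both directions present. Whether NMD classes differ from other classes was not tested.

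The genes of the decay machinery were themselves measured on polysomes. In SUM159 KD, 12 of 18 NMD factor genes fell and 4 rose, beside 31.4% and 28.6% of all genes (median log2 change -0.42, beside 0.00 for all genes tested). In MDA-MB-231 KD 5 fell and 3 rose, beside 16.5% and 21.1% (median 0.01). In BT549 OE 10 rose and 5 fell, beside 35.5% and 34.9% (median 0.18, beside 0.02). UPF3B, which links UPF proteins to the exon junction complex, had 1051 and 1041 normalized counts in SUM159 EV and 472 and 447 in KD. In BT549 it had 664 and 733 in EV and 1255 and 1308 in OE. It fell by 1.19 ± 0.07 (edgeR adjusted p = 1.6e-13) in the first and rose by 0.88 ± 0.06 (edgeR adjusted p = 9.2e-12) in the second, and its change of -0.09 in MDA-MB-231 KD did not pass (edgeR adjusted p = 0.20).

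GSPT1, the termination factor eRF3a, behaved alike, with -0.78 in SUM159 KD and 1.20 in BT549 OE, and rose by 0.22 in MDA-MB-231 KD. UPF1 fell by 0.47 in MDA-MB-231 KD and rose by 0.22 in SUM159 KD and 0.25 in BT549 OE. SMG1, the kinase of UPF1, fell by 0.21 and 0.64 in the KD lines and rose by 0.72 in OE. SMG5, an adaptor for decay of phosphorylated UPF1 targets, went the other way from SMG1. It rose by 0.11 in MDA-MB-231 KD and 0.34 in SUM159 KD and fell by 0.85 in BT549 OE. The UPF1 change differed in sign between the KD lines.

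Of 11 exon junction complex genes, 5 fell and 2 rose in MDA-MB-231 KD (beside 16.5% and 21.1% of all genes), 6 fell and 4 rose in SUM159 KD (31.4% and 28.6%), and 6 fell and 4 rose in BT549 OE (34.9% and 35.5%). The counts that rose in SUM159 and BT549 were near the share of all genes. With the NMD factors, 10 fell and 5 rose in MDA-MB-231 KD, and with RLE scaling 8 fell and 7 rose. EIF4A3, the helicase at the core of the complex, had 2433 and 2414 normalized counts in SUM159 EV and 1028 and 1121 in KD, and 3513 and 3758 in BT549 EV and 1587 and 1610 in OE. It fell in both lines, by 1.17 ± 0.05 (edgeR adjusted p = 4.1e-15) and 1.19 ± 0.05 (edgeR adjusted p = 4.9e-16), and changed by -0.07 in MDA-MB-231 KD. CWC22, which brings EIF4A3 to the spliceosome, fell by 0.98 in MDA-MB-231 KD and 1.20 in SUM159 KD. RNPS1, a peripheral component, rose in all 3, by 0.18, 0.22 and 1.28.

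**Figure D5:**
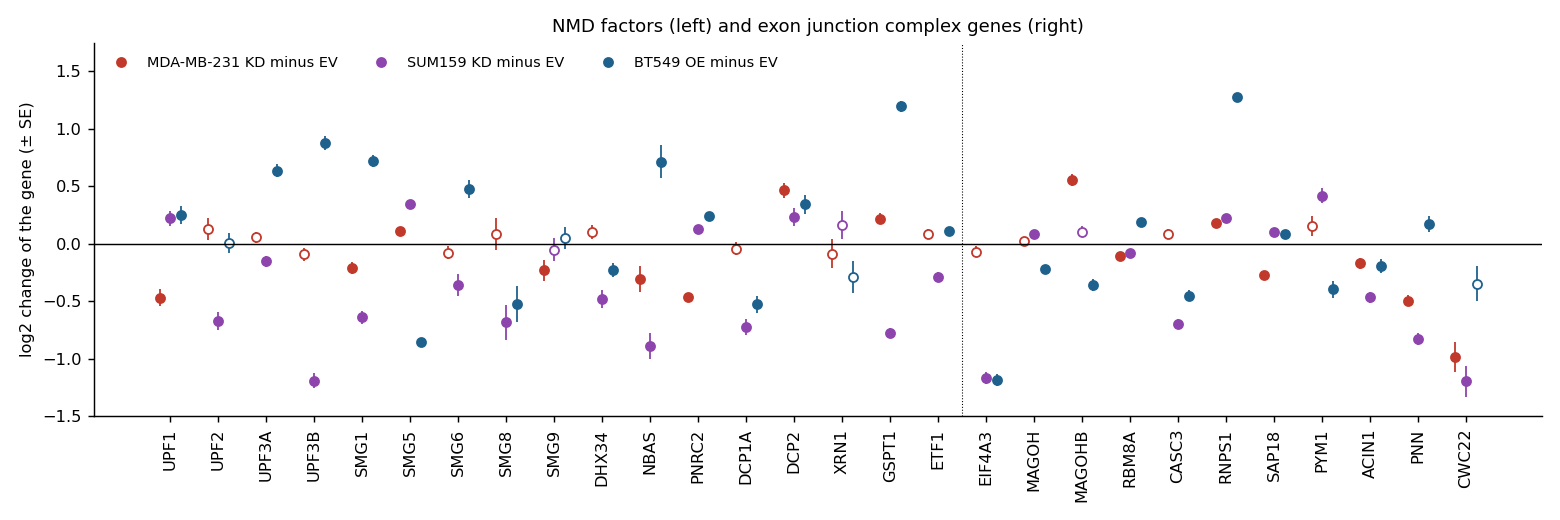
Log2 change of 17 NMD factor and 11 exon junction complex genes on polysomes in the 3 comparisons, with standard errors. UPF3B and GSPT1 fell in SUM159 KD and rose in BT549 OE, and EIF4A3 fell by 1.17 and 1.19 in these lines.

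Genes known as targets of the pathway, among them ATF4, GADD45A, GAS5 and the NMD factor genes that feed back on it, were also counted. This list has 8 genes in common with the NMD factors. Of 18 such genes, 9 fell and 1 rose in MDA-MB-231 KD (beside 16.5% and 21.1% of all genes), 11 fell and 3 rose in SUM159 KD (31.4% and 28.6%), and 7 fell and 7 rose in BT549 OE (34.9% and 35.5%). GAS5, a small nucleolar RNA host gene, had 1449 and 1416 normalized counts in MDA-MB-231 EV and 1013 and 874 in KD. It fell by 0.60 ± 0.08 (edgeR adjusted p = 9.3e-07) there and by 0.72 ± 0.08 (edgeR adjusted p = 4.1e-08) in SUM159 KD. GADD45A, a growth arrest gene, fell by 0.34, 0.21 and 1.13 in the 3 lines.

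Few members belonged to these genes. The NMD factor genes had 3 members, among them UPF1-215 and DHX34-202, and the exon junction complex genes 3 (ACIN1-206, MAGOHB-208 and MAGOHB-209), and of these 6 only ACIN1-206 was called, by level and share in BT549. TBL2-209, from a gene of a WD-repeat protein, held 45.5% to 64.4% of its gene over the 12 libraries. It rose by 0.50 ± 0.11 in BT549 OE (edgeR adjusted p = 0.00658) with its gene, and this call was lost without BT549 EV replicate 2 (0.0580) or OE replicate 1 (0.0615). Among the methyltransferase partners of TRMT112, ALKBH8 fell by 3.01 ± 0.07 in SUM159 KD (edgeR adjusted p = 6.3e-20). Its member ALKBH8-203 fell by 2.51 ± 0.63 (edgeR adjusted p = 0.0245), a call lost without any 1 of the 4 SUM159 libraries (0.0827 to 0.176).

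Splicing regulators outside the SRSF genes had 73 members in 39 genes. HNRNPA2B1 alone had 16, so members of this list are not independent of one another. The share of the library held by the 73 members was 0.283% and 0.282% in SUM159 EV and 0.149% and 0.153% in KD. In that line 15 of the 73 members fell by level (edgeR; beside 6.88% of all transcripts), and 2 fell in share (beside 0.274%). Their part of their genes was 23.7% in both EV libraries and 22.2% in both KD libraries. In MDA-MB-231 the same members took 0.186% and 0.190% of EV and 0.180% and 0.179% of KD, while their part of their genes was higher in KD (19.8% and 20.3% in EV, 21.99% and 21.9% in KD). In BT549 they took 0.211% and 0.213% of EV and 0.197% and 0.201% of OE, and their part of their genes was 26.4% in both EV libraries and 22.99% and 23.1% in OE. By level 9 rose and 12 fell in BT549 OE (beside 10.5% and 10.9%), and 4 fell in share (beside 1.04%). HNRNPA2B1-203 and HNRNPA2B1-232, which share the stop of a coding transcript, fell by 1.58 ± 0.05 and 1.50 ± 0.07 in SUM159 KD (edgeR adjusted p = 2.47e-08 and 4.48e-07) and the gene fell by 1.49. Together the HNRNPA2B1 members took 0.115% of the library in SUM159 EV and 0.0397% in KD, a large part of the list's change there.

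Members of translation genes showed smaller groups. Ribosomal protein genes had 27 members in 17 genes, which held 3.49% to 4.57% of their genes in MDA-MB-231 and SUM159 and 2.88% to 3.31% in BT549. In BT549 OE 5 rose in level and 1 in share, beside 10.5% and 1.01% of all transcripts. RPL11-204, with 231 bases of its own, held 23.3% to 29.2% of RPL11 and was not called by share in any line. Initiation and elongation factor genes had 33 members. EIF3E-215, from a subunit of the initiation factor eIF3, held 16.2% and 13.5% in SUM159 EV and 8.97% and 5.90% in KD. Its share fell by 1.00 ± 0.23 (edgeR adjusted p = 0.0100), and the call was lost without SUM159 EV replicate 1 (0.244) or KD replicate 2 (0.511).

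Aminoacyl-tRNA synthetase genes had 41 members in 15 genes. Their genes held 0.260% of both SUM159 EV libraries and 0.109% and 0.110% of the KD libraries, while the members made up 9.40% and 10.9% of the genes' counts in EV, against 12.5% and 13.8% in KD. By level 6 of these 41 members fell in SUM159 KD, beside 6.88% of all transcripts. In BT549 OE 3 rose and 1 fell in share, beside 1.01% and 1.04%. EARS2-217, from the mitochondrial glutamyl-tRNA synthetase gene, held 54.6% to 72.2% of its gene in every library and rose with it by 1.24 ± 0.13 in BT549 OE (edgeR adjusted p = 5.41e-05).

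Proteasome genes had 13 members in 11 genes. Their part of the genes was 5.73% and 5.45% in SUM159 EV and 8.81% and 8.62% in KD, and 3.94% and 3.73% in BT549 EV and 6.36% and 6.57% in OE. The perturbed libraries were higher in these lines and slightly lower in MDA-MB-231 (5.13% and 5.03% in EV, 4.53% and 4.26% in KD). These sums are weighted towards abundant members. The median log2 change of share over the 13 members was 0.27 in SUM159 and, against the direction of the sum, -0.66 in BT549 (0.01 and -0.00 for all transcripts tested). By level 1 rose in SUM159 KD, and 1 rose and 1 fell in BT549 OE (beside 5.65%, 10.5% and 10.9% of all transcripts).

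Interferon and antigen presentation genes had members of which many were selected through BT549 EV, as given below. Their 39 members in 19 genes held 0.0499% and 0.0456% of the BT549 EV libraries and 0.00571% and 0.00459% of the OE libraries. All transcripts of these genes together held 1.18% and 1.17% in EV and 0.146% and 0.148% in OE. Of the 39 members, 22 reached the mean of 20 counts only through the 2 BT549 EV libraries and so had to be lower in OE. The lower sum of the members is therefore a description, and no count of level calls is given for that line. By share 2 rose, both of HLA genes (beside 1.01% of all transcripts). The members made up 4.22% and 3.89% of the genes' counts in EV, against 3.91% and 3.10% in OE. This comparison too depends on members selected through EV. B2M-209, from the gene of beta-2-microglobulin, had 3171 and 2476 normalized counts in EV and 1077 and 867 in OE. It fell by 1.54 ± 0.19 (edgeR adjusted p = 0.000176). OAS3-225, from an oligoadenylate synthetase gene, was at least 229-fold lower in OE. In SUM159 KD 5 of the 39 members fell (beside 6.88% of all transcripts), and in MDA-MB-231 KD 2 rose (beside 2.33%).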

How the data were processed

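The authors deposited expected counts, not normalized, for Ensembl transcripts in 12 polysome RNA-seq libraries (3 lines, 6 groups, 2 libraries each). Per the labels and the study's methods reads were trimmed with Trimmomatic, aligned to GRCh38 with HISAT2, duplicates were removed with SAMtools, and Partek was used. The counting tool, annotation and strand setting are not given in the sources used here, and the labels and methods name different library kits (poly(A) selection or rRNA depletion), which bears on transcripts that share reads. A mark for a missing value (10254 rows, no member) was counted as 0, and counts were rounded for tests. Transcript IDs were matched without version to GENCODE 44 (79.6% of rows, 99.2% to 99.4% of counts, 3783 of 3802 members with the same version).

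The groups were those of the labels. Levels were tested with edgeR 4.0.16 (R 4.3.3; filterByExpr, TMM, quasi-likelihood, all 6 groups in 1 fit, 6 residual degrees of freedom) over 66844 transcripts, shares of a gene with diffSpliceDGE over 59551, and genes over 16562 summed counts, each with Benjamini-Hochberg adjustment and a call at an adjusted p under 0.05. Log2 changes are given with their standard error. Normalized counts are counts scaled by the TMM factors. A share is a transcript's count over that of all transcripts of its gene. Library shares were compared by exact two-sided permutation of libraries. Where a group was at 3 counts or fewer, a fold is against that floor. Standard errors cover the spread between these libraries, and floors cover counting error only. Scripts were tested on simulated data with known changes.

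Members, lists and tests were chosen with earlier results of these data known. Members were named when among the 6 of highest mean count, among the 4 (share) or 2 (level) largest changes per line and direction with a mean of at least 50 counts and groups that do not overlap, when in NMD factor, exon junction complex or TRMT112 partner genes, or among the 3 of highest mean count of each other list. The genes whose parts of the library share are given, and RPL13-210, UPP1-202 and ALDH3A2-233 as examples of differences between lines, were chosen after their values were seen. A gene and a transcript that met these rules are counted but not reported here. Alternatives were RLE and library-size scaling, DESeq2 1.42.0, limma 3.58.1 diffSplice (prior count 2), no filter or a mean of 50 counts, marked rows left out, version matching, each line alone, a replicate block, leaving out each library, other member minimums, and, added after the data were seen, transcripts summed by class, SOD2-215 left out and the division of the library share.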

Additional observations from a re-analysis of the deposited data

Results flagged for a closer look

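The effect of TRMT112 knockdown differed between MDA-MB-231 and SUM159 for the named NMD transcripts below, by a contrast of the 2 knockdown effects in edgeR with Benjamini-Hochberg adjustment over all transcripts. Each value below is the log2 effect in MDA-MB-231 minus that in SUM159.

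By level, the abundant members HNRNPA2B1-203 (1.90), HNRNPA2B1-232 (1.70), PPIA-202 (0.81), SOD2-215 (3.38) and HNRNPA1-205 (0.30) had a higher effect in MDA-MB-231, while FSTL1-211 (-0.25), RPL11-204 (-0.38) and PSMD9-204 (-0.68) had a lower one. Among the members of lower count, TOP3A-214 (4.01), CALR-204 (4.42), HNRNPA2B1-249 (3.76), EIF2A-211 (2.37), EIF3E-215 (1.81), LARS1-222 (1.02), HLA-B-257 (3.65) and HLA-C-202 (1.00) were higher, the HLA values being uncertain. For ACOT2-202 (8.48), OAS3-225 (8.54), EMD-203 (-7.73), FAM234A-218 (-6.72), PLCE1-208 (-8.36) and SH3TC2-206 (-6.59) 1 group was at 3 counts or fewer, so the fitted difference depends on the prior count.

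By share of the gene, the difference was 4.03 for CALR-204, 3.60 for TOP3A-214 and -2.23 for ALDH3A2-233. It was 5.51 for OAS3-225, -7.49 for EMD-203, -6.03 for FAM234A-218 and -7.40 for PLCE1-208, with the same limit on their low counts.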

How the results depend on the processing

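By level, 70, 326 and 688 members were called in MDA-MB-231, SUM159 and BT549. DESeq2 called 224, 631 and 1034, no filter 183 and 504 in the KD lines, and MDA-MB-231 alone 34. Leaving out 1 library gave 27 to 40, 195 to 207 and 459 to 494. By share, 15, 30 and 96 were called. Without a filter 6 and 14 were called in the KD lines, with MDA-MB-231 fitted alone 7, with classes summed 54 in SUM159 and with limma 150 in BT549. Leaving out 1 library gave 4 to 11, 10 to 18 and 46 to 56. The difference between the KD effects was called for 194 members by level (451 with DESeq2, 366 without a filter, 129 to 148 without 1 library) and for 16 by share (27 with limma, 10 without a filter, 5 to 15 without 1 library). Same-numbered libraries did not deviate together (correlations from -0.0358 to 0.0147), so no pairing by number was detected and none was used in the main fits. This cannot show whether same-numbered libraries were prepared together. With the replicate block 38 members were called by level in MDA-MB-231, 3 and 14 by share in MDA-MB-231 and SUM159, and 9 by share for the difference. The library share differed by -0.12 in MDA-MB-231 with all annotated NMD transcripts, and without SOD2-215 by -0.20 in SUM159 and -0.042 in BT549. The share of the genes' counts differed in SUM159 by -0.58 with all annotated transcripts and -0.27 without SOD2, and in BT549 by -0.15 without SOD2. Leaving out 1 library moved these differences within -0.110 to -0.0657, -0.399 to -0.337 and -0.222 to -0.163 for the library, and -0.314 to -0.160, -0.884 to -0.672 and -0.644 to -0.446 for the genes. The NMD factor and exon junction complex genes called, 15, 26 and 25, became 10 to 13, 22 to 25 and 21 to 26 without 1 library. Of 1395 alternative values of named members, 1195 kept direction and side of the threshold, 198 lost the call and 2 changed sign: the share of SOD2-215 in BT549 (-0.36 with limma, adjusted p = 0.847) and of NOTCH1-216 there (-0.58 to 7.46 without 1 library, lowest and past no threshold without OE replicate 1, adjusted p = 1). The cause was not tested, except that leaving out a library removes 1 of 2 samples, the lone sample then being assumed to vary like the other groups.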
